A study of Mus musculus with 136 samples.

Results

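Fth1 and Sod2 are 2 of the 15196 genes in a table of RNA levels from mouse macrophages, and both were taken by gene name. Fth1 encodes the heavy chain of ferritin, and Sod2 encodes the manganese superoxide dismutase of mitochondria. The study asked what the NF-kB subunit p50 and the nuclear IkB proteins do in macrophage activation. It measured 136 libraries of bone marrow-derived macrophages: 113 of RNA that stayed with the chromatin, mostly transcripts in the making, and 23 of polyA RNA.

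The mice were wild type, given as C57/B16, or carried Nfkb1-/-, Nfkbiz-/-, Bcl3-/- or Nfkbid-/-, and their ages are not given in the sources used here. Nfkb1 encodes p105 and p50, and Nfkbiz, Bcl3 and Nfkbid encode the nuclear proteins IkBz, Bcl-3 and IkBNS. Marrow cells were grown for 6 days in M-CSF and given lipid A, the part of lipopolysaccharide that activates the receptor TLR4. Each knockout series has its own wild type and 5 times (0, 0.5, 1, 2 and 6 h of lipid A), with 3 libraries of each genotype per time in the Nfkb1 and Nfkbid series and 2 in the Nfkbiz and Bcl3 series. The other chromatin libraries are wild-type cells given TNFa (5 libraries), and cells pretreated with DMSO (4) or an ERK inhibitor (4) and given lipid A for 0, 15, 30 or 60 min. The polyA libraries are wild-type cells given lipid A or TNFa (9, the mRNA series), cells labelled J2 that are wild type, Nfkb1-/- or Nfkb1-/- with Nfkb2-/- (8), and control cells (3) or cells with IkBz overexpressed (3). The sources used here do not say what J2 stands for or which vector drove IkBz. They also do not say whether libraries came from separate animals, so p-values measure the spread between these libraries, which may be technical.

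Ferritin is a hollow shell of heavy and light chains that stores iron. The heavy chain oxidises ferrous iron so that it can be laid down inside the shell, which keeps it from feeding reactions that make hydroxyl radicals. Manganese superoxide dismutase turns the superoxide leaking from the respiratory chain into hydrogen peroxide. Both genes are textbook targets of NF-kB with a protective role in cells that receive TNF. In macrophages ferritin also takes up iron from engulfed red cells, and its mRNA is held back from translation when iron is scarce.

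In the mm9 build used for the table, Fth1 (NM_010239) spans chromosome 19 from 10057135 to 10059601, which is 2466 bases. Sod2 (NM_013671) spans chromosome 17 from 13200704 to 13210985, which is 10281 bases. No other gene of the table overlapped either span. The span of Best1, a chloride channel gene, lies 59 bases beyond the end of Fth1. The neighbours of Sod2, Acat2 and Gpr31b, are 47112 and 33200 bases away. These distances are between coordinates, and the strand of the neighbours was not considered.

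The stretches just upstream of the start sites are shown because a match to the NF-kB consensus was found in that of Sod2 and not in those of Fth1. RefSeq on the GRCm38.p6 build gives 1 promoter for Sod2 and 2 for Fth1. The 250 bases before the start are printed 5′ to 3′ on the strand of the gene (plus for both), chr19:9982396-9982645 for Fth1 and chr17:13007589-13007838 for Sod2. Capitals mark matches to the motifs searched on both strands.
Fth1: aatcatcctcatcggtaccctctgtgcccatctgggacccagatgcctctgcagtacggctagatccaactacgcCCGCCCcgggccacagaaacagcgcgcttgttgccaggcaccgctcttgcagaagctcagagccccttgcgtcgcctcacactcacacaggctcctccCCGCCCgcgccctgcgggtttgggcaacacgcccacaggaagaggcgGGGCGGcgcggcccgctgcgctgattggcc
Sod2: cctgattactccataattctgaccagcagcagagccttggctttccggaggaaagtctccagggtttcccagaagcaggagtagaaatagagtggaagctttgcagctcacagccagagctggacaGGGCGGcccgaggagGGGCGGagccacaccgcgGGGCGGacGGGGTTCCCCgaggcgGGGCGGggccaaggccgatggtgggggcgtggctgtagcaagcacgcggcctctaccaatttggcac

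The motifs were the NF-kB consensus, the GC box GGGCGG that Sp1 reads, the antioxidant response element TGACNNNGC and the AP-1 site TGANTCA. Sod2 held the NF-kB consensus at 1 place, GGGGTTCCCC, from 83 to 74 bases before the start. This stretch matched the consensus on both strands, and the printed letters are those of the plus strand. This consensus was present in 7.251% of the 32851 RefSeq promoters of the same length. Sod2 also held the GC box at 4 places, none overlapping the NF-kB match. The Fth1 stretch held the GC box at 3 places and none of the other motifs, and 32.742% of all promoters held the GC box. The other Fth1 stretch, chr19:9980350-9980599, held no match of any of the 4 motifs. No match says only that these letters are not in this window, and no binding data were examined. GC content was 66.8% for the printed Fth1 stretch and 63.6% for Sod2, with a median of 52.4% over all promoters.

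Levels are in RPKM, reads scaled to the length of the gene and to the depth of the library. Differences, rises and falls are of log2(RPKM + 0.5), which understates changes of low values, and the 2-fold rule for calls applies to them. Multiples of a level and ratios of 1 level over another are of plain RPKM. In chromatin the whole gene span sets the length, so levels of the genes can be compared per length. Depth recovered from the values of 105 chromatin libraries was 7.86 to 45.3 M reads (M for 1e+06, median 29 M). In the Nfkb1, Nfkbiz and Bcl3 series Fth1 rested on at least 186 reads and Sod2 on at least 45 in every library. The labelled knockouts did not show as loss of the targeted RNA. In the chromatin series Nfkb1 RNA was 1.33 to 24.0 RPKM in wild type and 0.703 to 21.3 RPKM in Nfkb1-/- libraries, and Bcl3 RNA was 2.21 to 18.1 RPKM in wild type and 8.79 to 40.9 RPKM in Bcl3-/- libraries. A value over the whole gene need not fall when part of a gene is deleted, and Nfkbiz and Nfkbid RNA were not analysed here, so the genotypes below are as labelled. In the Nfkb1, Nfkbiz and Bcl3 series all 6 macrophage markers in the table reached 1 RPKM, and no neutrophil, dendritic, lymphocyte, erythroid, mast cell or stromal marker did.

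The libraries numbered 1 of the Nfkbid series, in both genotypes, stood apart from all other chromatin libraries. Their Fth1 level was 1310 to 3400 RPKM, against 28.7 to 117 RPKM in the libraries numbered 2 and 3. In the same libraries the summed level of 14 abundant cytoplasmic mRNAs was 3947 to 4474 RPKM, against 95.7 to 183 RPKM, and that of 4 nuclear-retained RNAs was 23.7 to 89.9 RPKM, against 2379 to 18894 RPKM. Which fraction these libraries hold is not stated. For Fth1 and Sod2, and for counts over gene lists, results that rest on them are given with and without them. Values of single list genes in wild type are from all 10 libraries per time.

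In resting wild-type macrophages Fth1 was among the most abundant chromatin RNAs and Sod2 was near 1 RPKM. Across the 9 wild-type libraries at 0 h that leave out Nfkbid replicate 1, Fth1 ranged from 35.6 to 69.3 RPKM (median 40.2) and Sod2 from 0.686 to 1.38 RPKM (median 1.00). The ranges did not overlap. Over 103 chromatin libraries of all conditions, again without those numbered 1 of the Nfkbid series, the median rank of Fth1 was 46 among 15196 genes and that of Sod2 was 157. Fth1 was never below rank 468, whereas Sod2 moved between rank 63 and rank 5160.

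Sod2 RNA rose within 0.5 h of lipid A in wild-type cells and stayed raised to 6 h. Without Nfkbid replicate 1 the 9 wild-type libraries held 15.5 to 25.6 RPKM of Sod2 at 0.5 h (median 21.3), 9.16 to 16.7 RPKM at 1 h (median 13.0), 10.7 to 20.7 RPKM at 2 h (median 17.4) and 18.9 to 26.5 RPKM at 6 h (median 23.8). Every stimulated library was above every resting one. The ranges of the stimulated times overlapped their neighbours, except that all 9 libraries at 6 h lay above all 9 at 1 h. Over the 10 wild-type libraries per time of the 4 series, limma gave a rise of 3.54 ± 0.23 (SE, log2) at 0.5 h with a Benjamini-Hochberg adjusted p of 1.4e-16. The rises at 1 h and 2 h were 2.99 and 3.26, and that at 6 h was 3.89 ± 0.23 (limma adjusted p = 1.5e-18). Without Nfkbid replicate 1, where Sod2 was 8.99 RPKM at 0 h and 16.3 RPKM at 0.5 h, the rises were 3.84, 3.15, 3.41 and 3.99 ± 0.11, all called. All 4 passed with 10 libraries too by the rule used throughout, an adjusted p under 0.05 and at least a 2-fold difference. Of 5893 genes tested, 4.62%, 5.21%, 7.94% and 7.31% rose by this rule at 0.5, 1, 2 and 6 h.

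For Fth1 the wild-type libraries parted from rest at 6 h, and by less than for Sod2. In the same 9 wild-type libraries it ranged from 23.9 to 59.1 RPKM at 0.5 h (median 43.5), from 38.3 to 75.2 RPKM at 1 h (median 56.7) and from 21.2 to 50.4 RPKM at 2 h (median 37.2). These ranges overlapped the resting one. At 6 h it ranged from 85.5 to 145 RPKM (median 112), above every library of the earlier times. With all 10 libraries the rise at 6 h was 1.27 ± 0.64 and did not pass (limma adjusted p = 0.0888). Without Nfkbid replicate 1 it was 1.33 ± 0.16 and passed (limma adjusted p = 9.7e-10), when 8.47% of genes rose. A fit with series and replicate number together as a block gave 1.27 ± 0.12 and also passed (limma adjusted p = 5.4e-12). In Nfkbid replicate 1 itself Fth1 was 1669 RPKM at 0 h and 2742 RPKM at 6 h.

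Within single series, the wild-type rise of Fth1 at 6 h was 1.43 ± 0.46 in the Nfkb1 series (limma adjusted p = 0.0188), 1.63 ± 0.55 in the Bcl3 series (limma adjusted p = 0.0393) and 1.07 ± 0.47 in the Nfkbiz series (limma adjusted p = 0.0687). The first and the second passed. In the Nfkbid series, which includes the libraries numbered 1, it was 1.01 ± 2.39 and did not pass (limma adjusted p = 0.879). Without them, wild-type Fth1 in replicates 2 and 3 was 39.7 and 54.3 RPKM at 0 h and 97.7 and 112 RPKM at 6 h. The shares of genes that rose were 7.25% in the Nfkb1, 8.44% in the Bcl3, 9.29% in the Nfkbiz and 2.31% in the Nfkbid series.

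**Figure D1:**
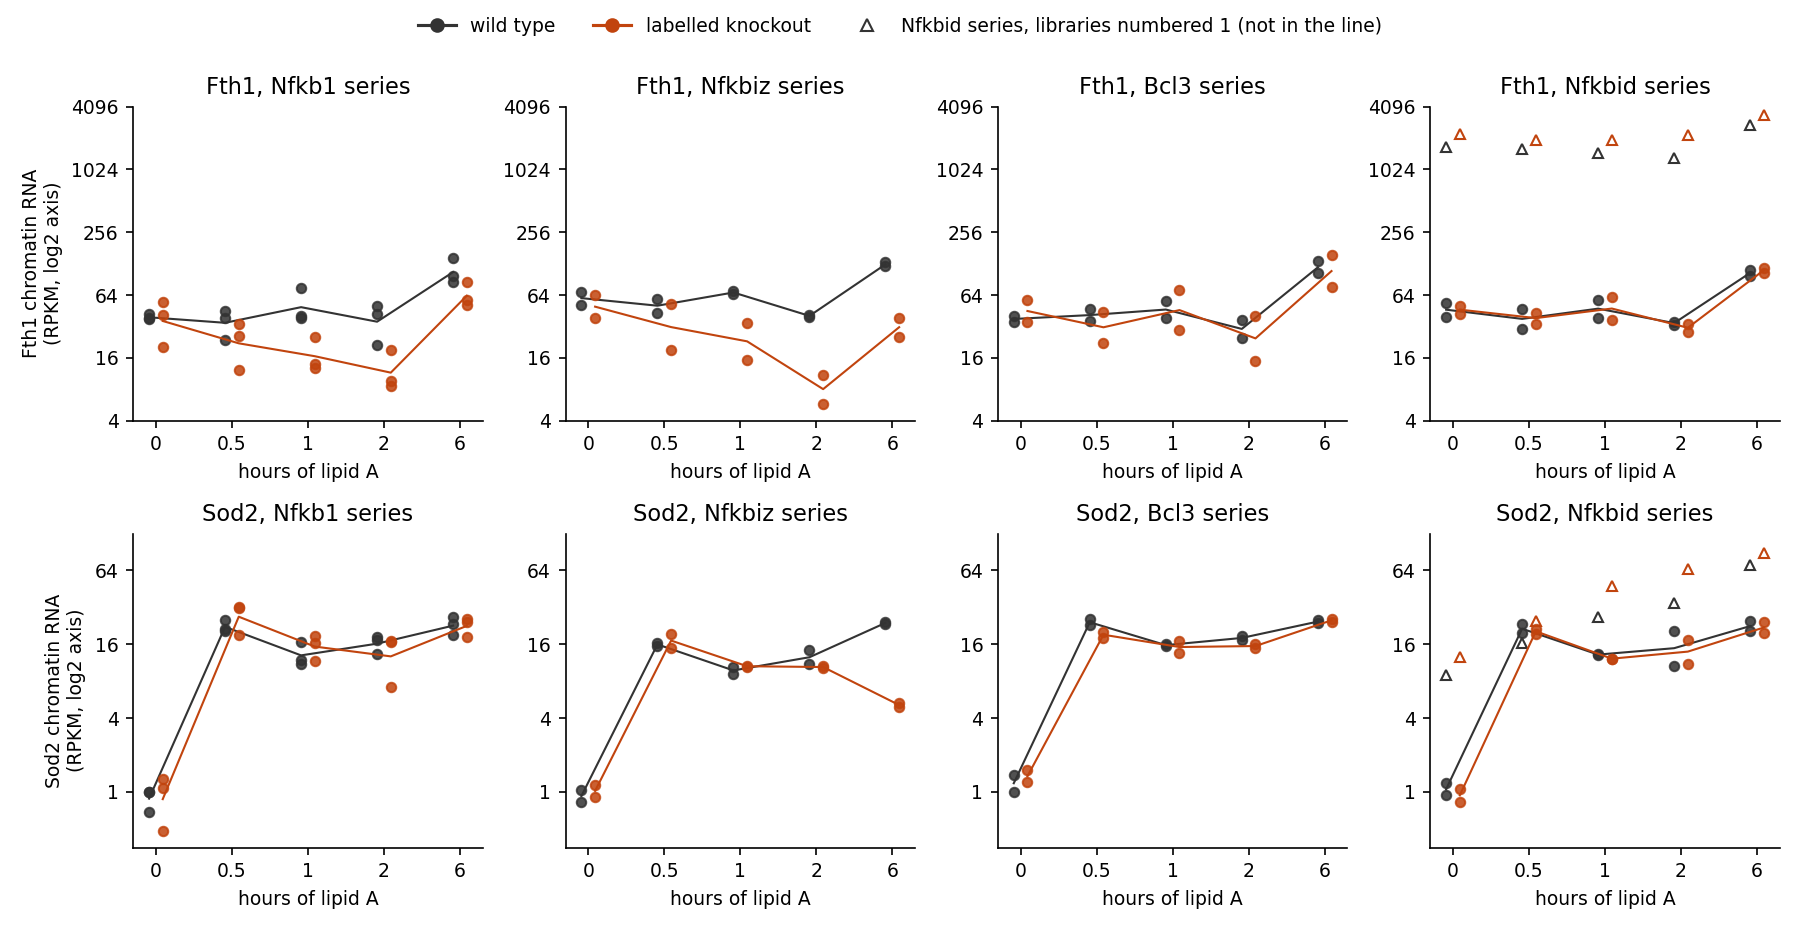
Chromatin RNA of Fth1 (top row) and Sod2 (bottom row) in RPKM on a log2 axis against hours of lipid A (times evenly spaced), 1 point per library, in the 4 knockout series. Black is wild type, red is the labelled knockout, lines join means of log2 values, and open triangles are the Nfkbid libraries numbered 1, which are not in the lines. At 1, 2 and 6 h every Nfkb1-/- and Nfkbiz-/- library lies below its wild type for Fth1, while for Sod2 the wide gap is at 6 h of the Nfkbiz series.

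Among the other genes of iron handling and antioxidant defence some rose and some fell in wild-type cells. Of 28 genes on a list of iron storage and handling, 19 were in the table and 16 were tested in wild type. At 2 h 6 of them fell and 3 rose (median -0.79, against -0.40 over all genes tested), when 16.7% of all genes fell and 7.94% rose. The falls included the iron exporter Slc40a1 (-2.80), the haem oxygenase Hmox1 (-1.90), the ferritin light chain Ftl1 (-1.81) and the phagosomal metal transporter Slc11a1 (-1.81). At 6 h 3 fell and 1 rose (median -0.27, against -0.35 over all genes), and the one that rose was Lcn2, which binds bacterial iron carriers, by 4.32 ± 0.40. Of 26 genes on a list of antioxidant defence, 14 were tested. At 6 h 2 fell, the catalase gene Cat (-1.30) and the glutathione synthesis gene Gclc (-1.09). In the same comparison 3 rose, the thioredoxin gene Txn1 (1.64), the glutathione reductase gene Gsr (1.28) and the peroxiredoxin gene Prdx1 (1.26). At that time 13.4% of all genes fell and 7.31% rose. Over all genes the median wild-type change lay between -0.47 and -0.35 at the 4 times, and the split of calls turned with the scaling: at 6 h it was 787 lower and 431 higher, and with each library centred on its median 316 lower and 674 higher. After centring, iron genes at 2 h stood at 5 lower and 4 higher and at 6 h at 2 lower and 5 higher, and antioxidant genes at 6 h at 0 lower and 4 higher. Without Nfkbid replicate 1 the iron list, with 15 genes tested, stood at 6 lower and 3 higher at 2 h and 3 lower and 2 higher at 6 h, and the antioxidant list, with 13 tested, at 2 lower and 3 higher at 6 h. Over all genes the centred split is given for 6 h only. For the fit without Nfkbid replicate 1 only the share that rose at 6 h is given. The 2 h counts of these settings thus have no background. The Sod2 rise at 6 h was 4.30 after centring and that of Fth1 1.68, both called.

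In the Nfkbiz series Fth1 RNA was lower in the labelled knockout at 2 h and 6 h of lipid A. At 0 h Fth1 was 51.8 and 69.3 RPKM in wild type and 38.3 and 64.3 RPKM in Nfkbiz-/- cells. At 1 h it was 65.1 and 70.8 RPKM in wild type and 15.4 and 34.7 RPKM in the knockout. The groups overlapped at 0 h and not at 1 h. At 2 h wild type had 39.7 and 41.3 RPKM and the knockout 5.86 and 11.1 RPKM, and at 6 h wild type had 121 and 132 RPKM and the knockout 25.5 and 39 RPKM. The mean was 4.79-fold lower at 2 h and 3.91-fold lower at 6 h, and no knockout library reached a wild-type one at either time. Such separation is weak evidence with 2 libraries of each genotype, and its share over all genes was not counted. Sod2 in this series separated at 1 h too, with a knockout mean only 1.08-fold that of wild type.

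The Fth1 difference was -0.27 before lipid A and -0.67 after 0.5 h. At 1 h it was -1.53, at 2 h it was -2.26 and after 6 h it was -1.98, each ± 0.47 (SE, n = 2 libraries of each genotype). It passed at 2 h (limma adjusted p = 0.0186) and at 6 h (limma adjusted p = 0.0132), though not under every setting, where 1.19% and 3.62% of 4885 genes were called lower and 0.184% and 1.84% higher. At 1 h it did not pass (limma adjusted p = 0.194, with 0.553% of genes called lower). It passed with replicate number as a block (limma adjusted p = 0.0162, with 0.86% of genes called lower). Leaving out 1 library moved the 1 h difference to between -2.11 (without knockout replicate 2, limma adjusted p = 0.0258) and -0.96 (without knockout replicate 1, limma adjusted p = 0.521). In these fits the lone knockout library at that time is taken to vary like the other groups, and the higher of the knockout libraries is the one left out where the difference passed. The 2 h call was lost without the filter on low values (limma adjusted p = 0.0557) and with that time fitted alone (0.0645), and both calls were lost with the spread shared by the 4 series (1.00 each). Each of the wild-type libraries mattered to the calls: the adjusted p at 2 h was 0.344 without wild-type replicate 1 and 0.162 without replicate 2, and at 6 h it was 0.192 and 0.0927. The difference itself stayed between -2.69 and -1.83 at 2 h and between -2.28 and -1.68 at 6 h when any 1 library was left out. Paired by replicate number, knockout over wild type was 0.148 and 0.268 at 2 h and 0.211 and 0.296 at 6 h.

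Sod2 in the Nfkbiz series differed from wild type late. At 0.5 h it was 15.5 and 16.4 RPKM in wild type and 15.0 and 19.6 RPKM in Nfkbiz-/- cells, and at 2 h 11.05 and 14.2 RPKM against 10.2 and 10.7 RPKM. The difference at 2 h was -0.25 ± 0.17 and did not pass (limma adjusted p = 0.508, 95% interval -0.62 to 0.11). At 6 h Sod2 was 23.5 and 24.4 RPKM in wild type and 5.31 and 4.92 RPKM in the knockout, 4.67-fold lower. The difference was -2.12 ± 0.17 (limma adjusted p = 2.4e-06, 95% interval -2.48 to -1.76). Before 2 h the intervals of the Sod2 difference lay within -0.27 and 0.47. These bounds are well inside a 2-fold change.

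The change of the knockout effect between 0 h and 6 h was itself tested. For Sod2 it was -2.21 ± 0.24 (limma adjusted p = 0.00014), in a comparison where 2.5% of genes had a lower effect at 6 h than at 0 h and 1.45% a higher one. With libraries centred on their median that split went from 122 lower and 71 higher genes to 80 lower and 101 higher. For Fth1 it was -1.71 ± 0.67 at 6 h (limma adjusted p = 0.223) and -1.99 ± 0.67 at 2 h (limma adjusted p = 0.352, with 0.512% of genes lower), so neither passed. With replicate number as a block the Fth1 values were the same and passed, with a limma adjusted p of 0.0265 at 6 h and 0.0360 at 2 h. Within the Nfkbiz-/- cells alone, Fth1 fell by 2.55 between 0 h and 2 h (limma adjusted p = 0.000316, when 25.6% of genes fell), and its value at 6 h was -0.65 ± 0.47 from that at 0 h (limma adjusted p = 0.236). Sod2 in those cells was still 1.88 ± 0.17 above 0 h at 6 h (limma adjusted p = 7.0e-07, when 10.2% of genes rose).

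Several library measures moved with genotype in this series. At 6 h the median difference of all 4885 genes was -0.24, and centring each library on its median gave -1.74 for Fth1 and -1.87 for Sod2, both still called. Centring also changed the split of all calls at 6 h from 177 lower and 90 higher to 91 lower and 165 higher. The summed level of the abundant cytoplasmic mRNAs at 2 h was 162 and 171 RPKM in wild type and 130 and 172 RPKM in Nfkbiz-/- cells, and at 6 h 160 and 159 RPKM against 114 and 138 RPKM. The nuclear-retained RNAs summed to 4431 and 5096 RPKM in wild type and 2133 and 2582 RPKM in the knockout at 2 h, and to 4649 and 5023 RPKM against 2535 and 3055 RPKM at 6 h. Their median, however, overlapped at 6 h (802 and 725 RPKM in wild type, 702 and 893 RPKM in the knockout). The median of the cytoplasmic mRNAs at 6 h was 4.80 and 4.10 RPKM against 2.26 and 2.64 RPKM. The part these measures play in the Fth1 and Sod2 differences was not tested. The neutrophil and granulocyte precursor markers summed to less than 1 RPKM in both genotypes (0.438 to 0.829 RPKM and 0.336 to 0.725 RPKM).

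Best1, whose span lies just beyond Fth1, was lower too in the Nfkbiz series. It was 1.36 to 1.40 RPKM in wild type and 0.287 to 0.336 RPKM in Nfkbiz-/- cells at 2 h, and 3.59 to 3.76 RPKM against 1.07 to 1.23 RPKM at 6 h. The difference was -1.21 ± 0.21 at 2 h (limma adjusted p = 0.00547) and -1.34 ± 0.21 at 6 h (limma adjusted p = 0.000808). Reads that run past the end of Fth1 into Best1 cannot be told from reads of Best1 itself in these values. In the Nfkb1 series Best1 stayed under 1 RPKM in every library and was not tested. The wild-type level of Best1 thus depended on the series. At 6 h it averaged 3.675 RPKM in the Nfkbiz series, 4.096 RPKM in the Bcl3 and 0.247 RPKM in the Nfkb1 series. Wild-type Fth1 averaged 126, 119 and 109 RPKM in the same groups. Whether the Best1 difference is separate from that of Fth1 was not tested.

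In the Nfkb1 series every labelled knockout library held less Fth1 than every wild-type library at 1, 2 and 6 h, but the differences at 1 h and 2 h passed only with the replicate number in the fit and that at 6 h did not pass. At 1 h Fth1 was 38.6, 40.8 and 75.2 RPKM in wild type and 13.9, 12.9 and 25.6 RPKM in Nfkb1-/- cells. At 2 h it was 42.3, 21.2 and 50.4 RPKM in wild type and 9.60, 8.54 and 18.9 RPKM in the knockout. At 6 h it was 97.5, 85.5 and 145 RPKM in wild type and 57.4, 51.6 and 85.0 RPKM in the knockout. The groups did not overlap at any of these 3 times, and at 0 h (37.5, 41.8 and 38.7 RPKM against 20.6, 41.5 and 55.6 RPKM) they did. How many of all genes separated likewise was not counted. With so few libraries groups can separate by chance, so this is a description and no test. By replicate number, knockout over wild type lay between 0.317 and 0.361 at 1 h, between 0.227 and 0.403 at 2 h and between 0.587 and 0.604 at 6 h, below 1 in 3 of 3 pairs each time. Depth was 7.86 to 16.2 M reads in the libraries numbered 1 and 23.4 to 32.7 M in the others. At 2 h the median of the abundant cytoplasmic mRNAs was 5.07, 2.87 and 3.96 RPKM in wild type and 3.82, 2.25 and 3.20 RPKM in the knockout. At 1 h and 6 h the pairs went both ways. The part of these measures was not tested.

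Whether these Fth1 differences passed depended on the replicate number. The difference was -1.53 ± 0.46 at 1 h (limma adjusted p = 0.245, 0.597% of 4523 genes called lower), -1.58 ± 0.46 at 2 h (limma adjusted p = 0.277, 0.376% called lower) and -0.75 ± 0.46 at 6 h (limma adjusted p = 1.00, 0.221% called lower). At 0.5 h it was -0.64, when 0.0663% of genes were called lower. The share called higher was 0.0442% at 1 h and 0.0884% at 6 h. With the replicate number as a block the adjusted p was 0.00489 at 1 h and 0.00459 at 2 h, where 1.24% and 0.951% of genes were called lower, and 0.307 at 6 h. Within Nfkb1-/- cells Fth1 fell by 1.60 between 0 h and 2 h (limma adjusted p = 0.00945, when 14.2% of genes fell). In wild type of that series the same contrast was -0.14 ± 0.46, and the difference between them was not called (-1.46 ± 0.65, limma adjusted p = 1.00). The effect at 1 h minus that at 0 h was -1.42 ± 0.65, which passed only with the replicate number as a block at each time (limma adjusted p = 0.0443). Without a block the share of genes with a lower effect than at 0 h was 0.0221% after 0.5 h, 0.0884% after 1 h, 0.0663% after 2 h and again 0.0221% after 6 h.

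Sod2 in the Nfkb1 series overlapped between genotypes at all 5 times. At 0.5 h it was 20.5, 25.0 and 21.3 RPKM in wild type and 19.0, 31.4 and 32.5 RPKM in Nfkb1-/- cells, and at 6 h 18.9, 23.4 and 26.5 RPKM against 18.5, 25.5 and 24.5 RPKM. The difference at 6 h was -0.01 ± 0.33 (95% interval -0.69 to 0.68), which does not reach a 2-fold change in either direction. At 2 h it was -0.33 ± 0.33 (95% interval -1.02 to 0.36).

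The 2 knockout effects were set against each other in 1 fit of the 4 series. At 6 h the Nfkbiz-/- effect on Sod2 was lower than the Nfkb1-/- effect by 2.11 ± 0.88, which did not pass (limma adjusted p = 1.00, with 0.0818% of 6113 genes lower). That fit shares its spread with the Nfkbid libraries numbered 1. With the Nfkb1 and Nfkbiz series alone the same value passed (limma adjusted p = 0.00462, with 0.577% of 5375 genes lower), and with the replicate block it passed too (limma adjusted p = 0.00848). For Fth1 at 6 h the difference of the effects was -1.23 and was not called in any of these fits (limma adjusted p = 1.00, 0.601 and 0.130).

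**Figure D2:**
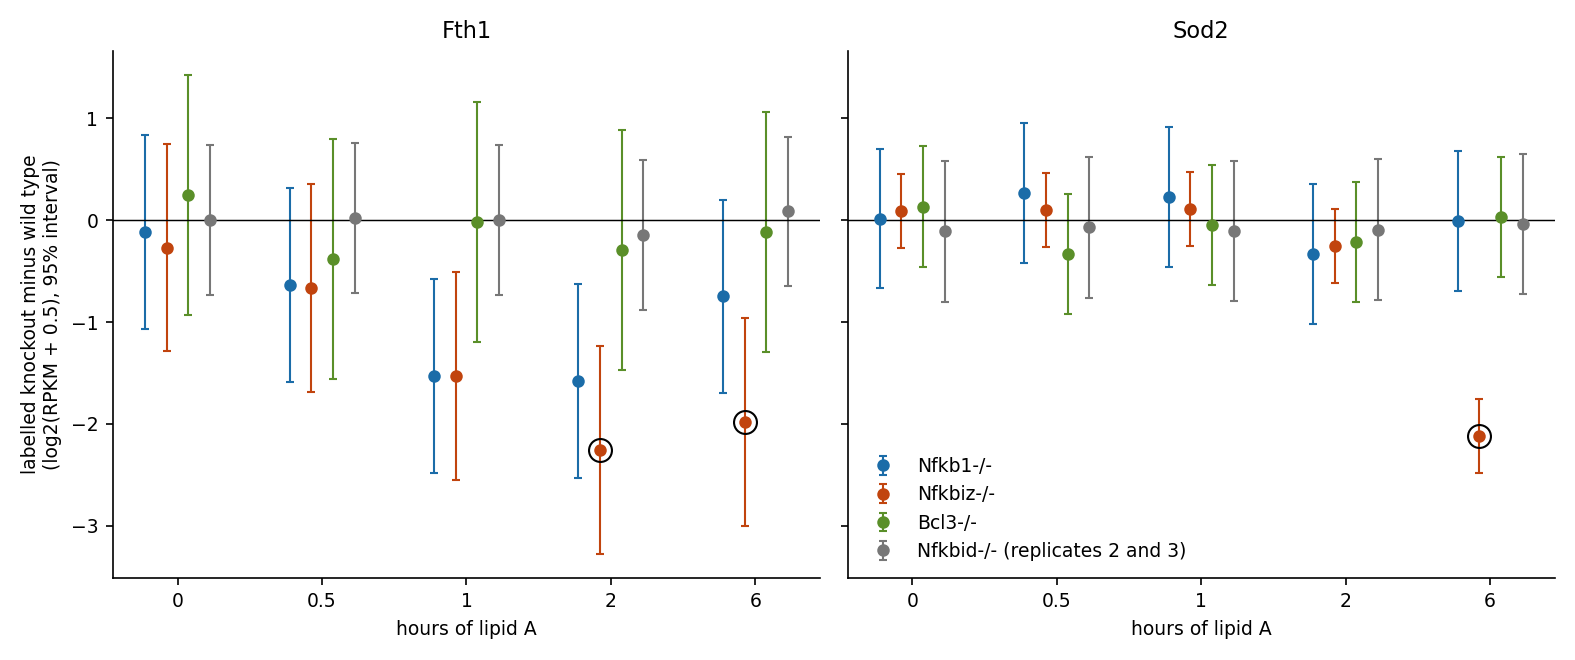
Knockout minus wild type in log2(RPKM + 0.5) with 95% intervals from limma, by hours of lipid A, for Fth1 (left) and Sod2 (right). Colours are the labelled knockouts, the Nfkbid-/- points use replicates 2 and 3, and a black ring marks differences called without a replicate block. The 3 ringed points are Fth1 at 2 h (-2.26) and 6 h (-1.98) and Sod2 at 6 h (-2.12), all in Nfkbiz-/- cells.

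The Bcl3-/- and Nfkbid-/- libraries gave no called difference for either gene. In the Bcl3 series Fth1 at 2 h was 24.8 and 37.2 RPKM in wild type and 15.1 and 40.2 RPKM in the knockout, and at 6 h 103 and 135 RPKM against 76.7 and 154 RPKM. Sod2 at 6 h was 25.2 and 23.8 RPKM in wild type and 25.9 and 24.3 RPKM in the knockout. Fth1 overlapped between genotypes at every time, with differences from -0.38 to 0.25 and a 95% interval at 6 h of -1.30 to 1.06. That interval reaches a 2-fold change in each direction. Sod2 differences were -0.33 to 0.13, and the interval at 6 h was -0.56 to 0.62. At 0.5 h and 2 h both knockout libraries held less Sod2 than both wild-type ones, by differences of -0.33 and -0.21 that were not called. limma called 0% of 4740 genes at each of these times. Without adjustment, 4 genes were lower and 8 higher at 6 h (p under 0.05 and 2-fold).

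In the Nfkbid series with replicates 2 and 3, Fth1 at 6 h was 97.7 and 112 RPKM in wild type and 117 and 105 RPKM in the knockout. Sod2 at 6 h was 24.5 and 20.6 RPKM in wild type and 24.3 and 19.8 RPKM in the knockout. The values interleaved. The difference at 6 h was 0.09 ± 0.34 for Fth1 (95% interval -0.65 to 0.82) and -0.04 ± 0.32 for Sod2 (95% interval -0.73 to 0.65). With the libraries numbered 1 included it was 0.16 ± 2.39 for Fth1 and 0.08 ± 0.91 for Sod2. In that fit limma called 0% of genes, and without adjustment 0 genes were 2-fold different at p under 0.05 at 6 h. Its spread was wide (median residual SD 0.742 over genes), so these zeros do not show that the knockout had no effect. The share called with replicates 2 and 3 alone is not given here.

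Some other genes of the same pathways were lower in the knockouts. Of the list of iron storage and handling, 13 genes were tested in the Nfkbiz series. At 6 h 3 were lower and 0 higher (median -0.36, against -0.24 over all genes, of which 3.62% were lower and 1.84% higher): Lcn2, the phagosomal metal transporter Slc11a1 (-1.25) and the iron sensor Fbxl5 (-1.01). Lcn2 was 12.8 and 15.1 RPKM in wild type and 0.0581 and 0.0666 RPKM in Nfkbiz-/- cells. At 2 h 1 was lower, again Lcn2, when 1.19% of all genes were lower. At 6 h 2 genes of the list were lower with libraries centred on their median, and 5 with the replicate number as a block. The ferritin light chain Ftl1, chosen for being the partner of Fth1, was -0.73 ± 0.45 at 2 h and -1.01 ± 0.45 at 6 h and did not pass (limma adjusted p = 0.471 and 0.118). In the Nfkb1 series, with 0.221% of all genes lower at 6 h, 1 of 13 was lower then, Lcn2 (4.95 to 13.4 RPKM in wild type and 0.0243 to 0.0737 RPKM in the knockout), and none at 1 or 2 h. With the replicate block 2 were lower at 6 h. No share of all genes is set beside these block and centring counts, so they are not a result about the list.

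Of the list of antioxidant defence, 11 genes were tested in the Nfkbiz series. At 6 h 2 were lower and 0 higher (median -0.56, against -0.24 over all genes, of which 3.62% were lower and 1.84% higher). Gsr, which regenerates reduced glutathione, was 2.86 and 3.80 RPKM in wild type and 0.295 and 0.346 RPKM in Nfkbiz-/- cells (-2.21 ± 0.15, limma adjusted p = 7.3e-07). The groups were far apart. G6pdx, which supplies NADPH, was lower by a smaller amount (-1.15 ± 0.23), and with libraries centred on their median 1 gene of the list was lower. At 2 h Gsr alone was lower (-1.35 ± 0.15). In the Nfkb1 series 0 of 12 were called by limma at 1, 2 or 6 h. With the replicate block 1 was lower at 1 h and 1 at 2 h, and with median centring 1 at 6 h. The block also raised the share of all genes called lower at 1 h and 2 h. These counts are thus not a result about the list.

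The genes whose pattern was most like each member were ranked by Pearson's r over the 40 group means of the 4 series (wild type and knockout at 5 times each), among 4077 genes. These means share libraries' depth and genotype effects, so r is a description. Fth1 was most like Lrrc25 (0.83), Atf6b (0.83) and Rac2 (0.83), and the same 3 genes led without Nfkbid replicate 1 and without the whole Nfkbid series. Sod2 was most like Tnip3 (0.96), Slfn2 (0.95) and Slc15a3 (0.93), and Tnip3 also led in both alternatives. Fth1 and Sod2 were not like each other, with r of 0.10. Lrrc25, a leucine-rich repeat protein gene, was 8.45 and 9.11 RPKM in wild type and 0.182 and 0.221 RPKM in Nfkbiz-/- cells at 2 h. Lrrc25 in the Nfkb1 series overlapped between genotypes at 2 h (6.39 to 9.62 RPKM in wild type and 4.13 to 12.1 RPKM in the knockout), where Fth1 did not. Tnip3, which encodes an A20-binding inhibitor of NF-kB, was 52.1 and 55.3 RPKM in wild type and 17.6 and 19.3 RPKM in those cells at 6 h.

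The polyA libraries put the chromatin values beside the level of mature RNA. In the 23 polyA libraries Fth1 was the most abundant RNA of the table in most (median rank 1, lowest rank 3, 6070 to 19849 RPKM). Sod2 had a median rank of 457 (15.6 to 500 RPKM). In the mRNA series, with 1 library per condition and no replicate, Fth1 was 15803 RPKM at 0 h and 17949, 15192, 14295 and 19849 RPKM after 0.5, 1, 2 and 6 h of lipid A. Sod2 was 24.2 RPKM at 0 h and 58.0, 147, 212 and 500 RPKM at those times. Fth1 stayed within 1.26-fold of its start, and Sod2 reached 20.6-fold.

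For Fth1 the polyA level was 393-fold the chromatin median at 0 h and 177-fold at 6 h. For Sod2 it was 24.2-fold at 0 h and 2.72-fold after 0.5 h, then 11.3-fold after 1 h and 21-fold after 6 h. The ratio for Sod2 was lowest at 0.5 h, when chromatin RNA had already reached its early level, and returned by 6 h. These ratios join libraries of different fractions and preparations, and the extraction text describes chromatin for the polyA libraries too. The gene length behind the polyA values was not established. The size of the ratio for Fth1 is thus not comparable with that for Sod2.

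**Figure D3:**
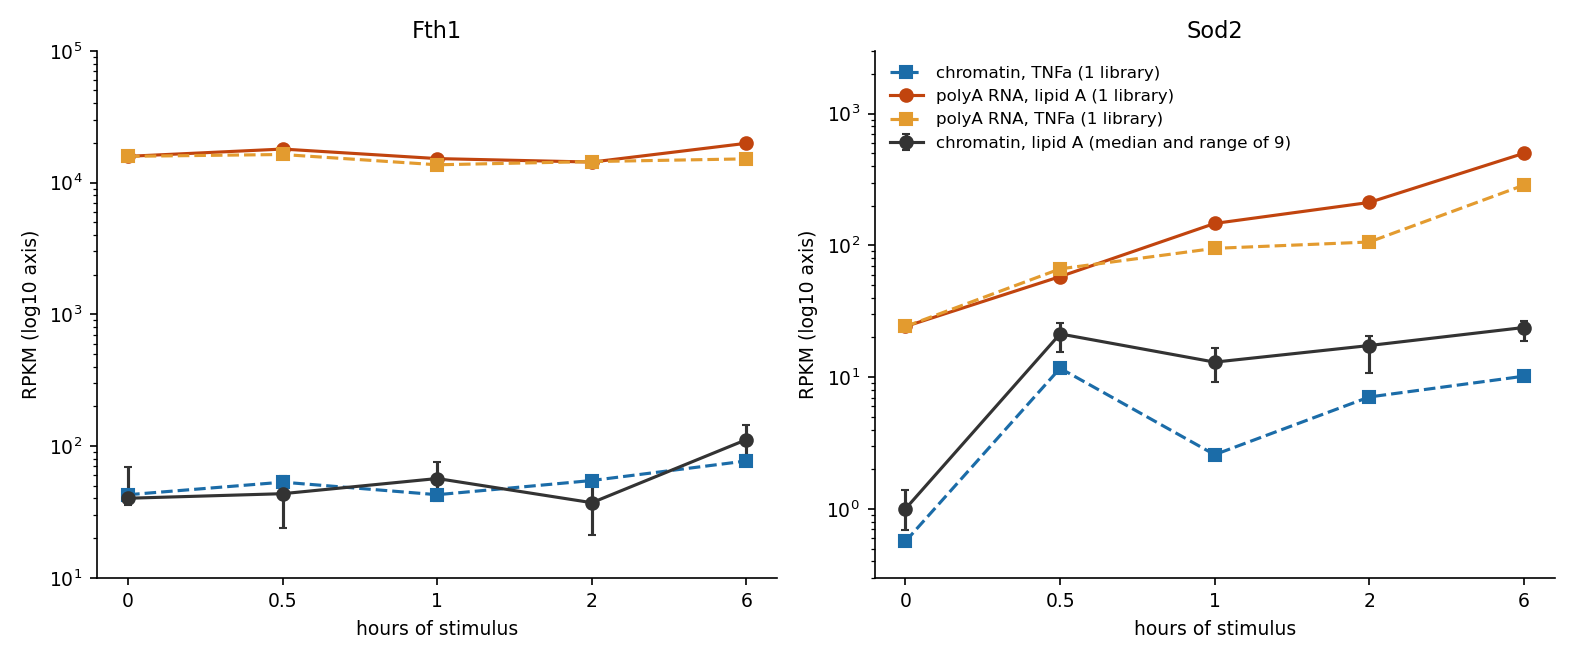
Fth1 (left) and Sod2 (right) in RPKM on a log10 axis against hours of stimulus (times evenly spaced), in wild-type cells. The black line is the median and range of 9 chromatin libraries given lipid A, and the other lines are single libraries: chromatin with TNFa, and polyA RNA with lipid A or TNFa. The polyA level of Fth1 lies between 13631 and 19849 RPKM throughout, while that of Sod2 goes from 24.2 to 500 RPKM with lipid A and to 287 RPKM with TNFa.

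With TNFa the polyA level of Sod2 was below that with lipid A from 1 h on, again in single libraries. After 0.5, 1, 2 and 6 h of TNFa Sod2 was 66.4, 94.9, 106 and 287 RPKM, and lipid A over TNFa was 0.874, 1.55, 2.00 and 1.74. Fth1 was 16318, 13631, 14419 and 15122 RPKM. In chromatin with TNFa, Sod2 was 0.567 RPKM at 0 h and 11.7, 2.58, 7.07 and 10.2 RPKM after that, so the library at 1 h was the lowest of the stimulated ones. Fth1 in those libraries was 42.7, 53.2, 42.7, 54.8 and 77.1 RPKM at 0, 0.5, 1, 2 and 6 h. The differences between stimuli were not tested.

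The ERK inhibitor series resolved the first hour. In DMSO-treated cells Sod2 was 1.06 RPKM at 0 min and 15.5, 23.2 and 16.7 RPKM after 15, 30 and 60 min of lipid A, and with the inhibitor it was 1.22 RPKM and then 19.1, 30.9 and 19.2 RPKM. The level at 15 min was already 14.6-fold and 15.6-fold that at 0 min. Fth1 was 35.3, 64.9, 51.5 and 38.2 RPKM with DMSO and 33.6, 51.9, 43.9 and 42.2 RPKM with the inhibitor. Inhibitor over DMSO lay between 1.15 and 1.33 for Sod2 and between 0.800 and 1.11 for Fth1, with 1 library per condition and no test.

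In J2 cells the level of Fth1 polyA RNA was similar at 0 h and 2 h of lipid A. It was 8859 and 8167 RPKM in wild type, 6118 and 6479 RPKM in Nfkb1-/- cells, and 8926 and 6070 RPKM at 0 h and 9026 and 6201 RPKM at 2 h in the double knockout. Sod2 was 30.9 and 94.2 RPKM in wild type, 28.3 and 131 RPKM in Nfkb1-/- cells, and 39.1 and 31.1 RPKM at 0 h and 125 and 124 RPKM at 2 h in the double knockout. The knockout libraries held more Sod2 at 2 h than the single wild-type library. Double knockout minus wild type at 2 h was 0.40 ± 0.22 for Sod2 and -0.13 ± 0.35 for Fth1, and neither passed (limma adjusted p = 1.00 for each), with the lone wild-type library taken to vary like the double knockout. limma called 0% of 6436 genes there, and without adjustment 141 were lower and 69 higher (p under 0.05 and 2-fold). The 95% intervals were -0.19 to 1.00 for Sod2 and -1.07 to 0.82 for Fth1.

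In the cells with IkBz overexpressed Fth1 was higher than in the control at each of the 3 conditions, with 1 library each and no test. It was 14237 against 8412 RPKM unstimulated, 12620 against 8145 RPKM after 2 h of TNFa and 10360 against 6683 RPKM after 2 h of lipid A, which is 1.69-, 1.55- and 1.55-fold. Sod2 was 21.1 against 15.6 RPKM unstimulated, 76.7 against 98.3 RPKM with TNFa and 118 against 130 RPKM with lipid A, so overexpression over control was 1.36-, 0.780- and 0.910-fold. With TNFa Sod2 was 3.63-fold its own start in these cells and 6.30-fold in the control. Markers of other cells moved with the overexpression. The 7 neutrophil and granulocyte precursor markers in the table summed to 178 to 251 RPKM in the overexpressing cells and 15.7 to 21.6 RPKM in the control, and the 6 macrophage markers to 12190 to 16960 RPKM and 7727 to 10030 RPKM. Their part in the Fth1 values was not tested. In bulk samples fewer cells of a type and less RNA per cell cannot be told apart.

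**Figure D4:**
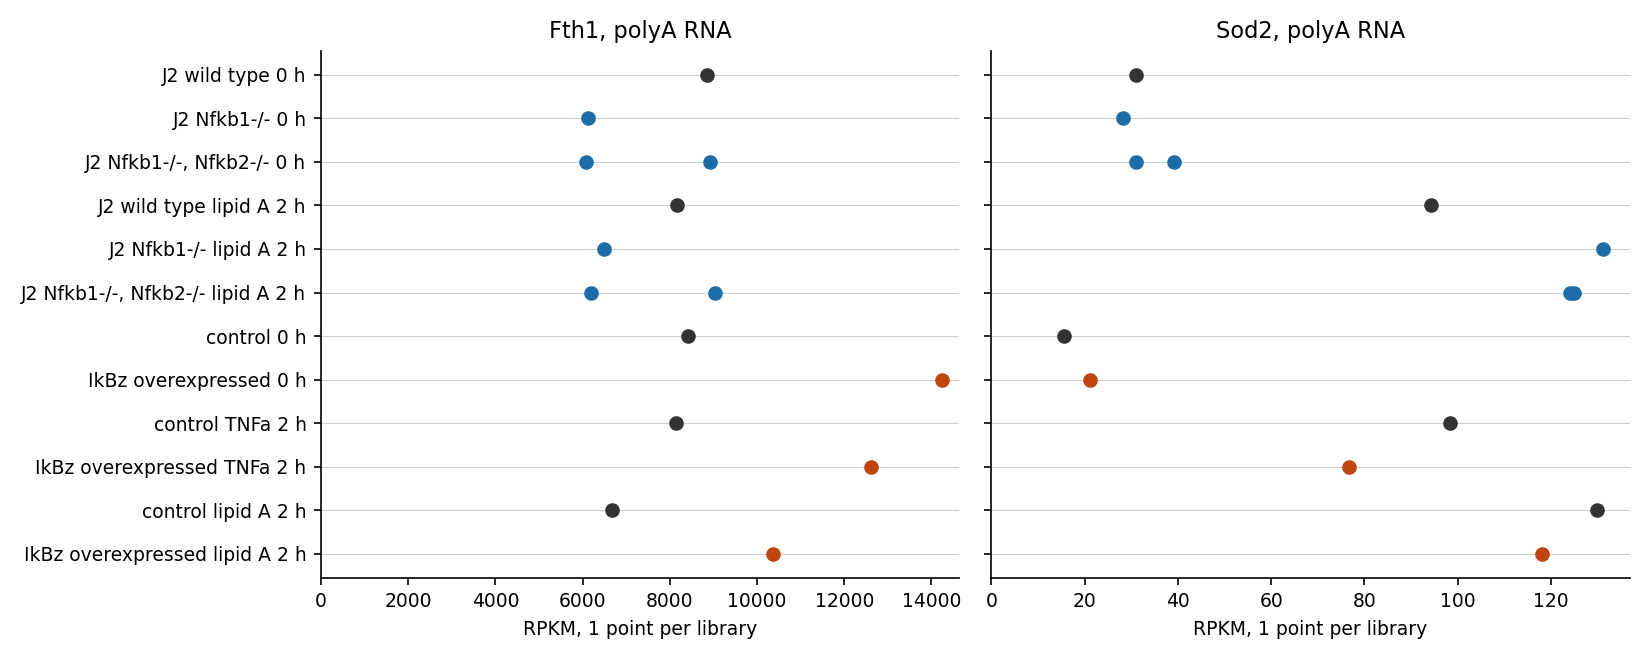
PolyA RNA of Fth1 (left) and Sod2 (right) in RPKM, 1 point per library, in J2 cells by genotype and in control and IkBz-overexpressing cells. Black is wild type or control, blue the J2 knockouts and red the overexpressing cells. Fth1 is higher in each overexpressing library than in its control, and Sod2 is higher in stimulated than in unstimulated libraries of every kind.

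The order of Fth1 chromatin levels across conditions ran from Nfkbiz-/- cells at 2 h (5.86 and 11.1 RPKM) to the Bcl3-/- and wild-type libraries at 6 h (up to 154 RPKM), leaving out the Nfkbid libraries numbered 1. Next to the lowest group came Nfkb1-/- cells at 2 h (8.54 to 18.9 RPKM) and at 1 h (12.9 to 25.6 RPKM), and these neighbours overlapped. For Sod2 the lowest levels, again without those libraries, were at 0 h in every genotype (0.483 to 1.5 RPKM). The lowest levels after lipid A were in Nfkbiz-/- cells at 6 h (4.92 and 5.31 RPKM), and the next library was Nfkb1-/- at 2 h (7.21 RPKM).

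A single other gene of the mouse annotation matched an Fth1 transcript at 90% identity or more over at least 50% of it, a pseudogene at 90.458% that is not in the table, and none matched Sod2. How reads that map to several places were treated is not stated, so a share of Fth1 reads may be uncertain.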

How the data were processed

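The authors deposited 1 table of RPKM values, 15196 genes by 136 libraries, with start and end positions of each gene in mm9. HISAT2 and SAMtools were used, per the submitters' processing notes. Versions and the rule for reads that map to several places are not given in the sources used here. Column names matched the labels for all libraries. Depth was recovered from values worth 30 reads or fewer, whole within 0.02 of a read in 105 chromatin libraries, and could not be recovered for the DMSO and ERK inhibitor libraries or for polyA RNA. This sets counting error, and the spread between libraries limits precision for both genes.

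Values were analysed as log2(RPKM + 0.5) with limma 3.58.1 in R 4.3.3 (lmFit, eBayes with trend). In a knockout series, genes were tested that reached 1 RPKM in at least as many libraries as 1 group holds. In the J2 fit and the fits over several series, at least 2 libraries at 1 RPKM were enough. Each knockout series had its own fit, the wild-type response had series as a term, and differences between knockout effects came from 1 fit of 4 series. P-values were adjusted by Benjamini and Hochberg over all genes. A call needed an adjusted p under 0.05 and 2-fold, or the adjusted p alone for differences of differences. Wild-type changes within 1 series, and changes within a knockout, were added after values were seen. Scripts were tested on simulated data. Alternatives were the pseudocount (0.1 and 1), the filter (none and 3 RPKM), median centring, the replicate block, a shared spread, each time alone and leaving out each replicate.

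Libraries with the same replicate number deviated together in every pair (lowest r 0.61 for Nfkb1, 0.447 for Nfkbiz, 0.267 for Bcl3 and 0.885 for Nfkbid). The labels do not say what a number marks. The main fits, and the calls from them, left this pairing out. Only the fits with a replicate block and the ratios by replicate number used it. With 2 libraries per group, as in the Nfkbiz and Bcl3 series, both numbers must give the same r at each time. Those pairs are not separate values. Named genes were Fth1 and Sod2, at most 4 called genes of largest difference per list, the 3 most alike genes and the nearest neighbours. The members and lists were chosen with earlier results of these data known.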

Additional observations from a re-analysis of the deposited data

Results flagged for a closer look

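Replicate 1 of the wild-type Nfkbid libraries lay far above the other 9 wild-type libraries for Fth1 at all 5 times and for Sod2 at all but 0.5 h, where its 16.3 RPKM lay within their range of 15.5 to 25.6 RPKM. Its gap to the next library, as a share of the whole range of the 10, was 0.979 for Fth1 at 0 h and 0.978 after 0.5 h. After 1, 2 and 6 h it was 0.974, 0.977 and 0.978. For Sod2 the share was 0.916 at 0 h and 0.570, 0.580 and 0.855 after 1, 2 and 6 h, against a Dixon critical value of 0.466 for 10 samples. Chance alone exceeds that value in about 1 of 20 groups of 10 values drawn alike. The 9 cases are not independent, since both genes share the replicate 1 library of each time.

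The effect of Nfkbiz-/- on Sod2 differed between times: the effect at 6 h minus that at 0 h was -2.21.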

How the results depend on the processing

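Over 98 results and 1168 alternatives, 27 changed their side of the threshold, and none reversed where either fit made a call. The other 1141 were counted as unchanged. Among them, differences called in neither fit could change direction, and 12 were correlations that moved by less than 0.1. For Fth1 in Nfkbiz-/- cells at 2 h the difference of -2.26 no longer passed without a filter (limma adjusted p = 0.0557), with each time fitted alone (0.0645) or with the spread shared by the 4 series (1.00). It ranged from -2.69 to -1.83 when 1 library was left out. At 6 h the difference of -1.98 no longer passed with the shared spread, and it ranged from -2.28 to -1.68. Sod2 at 6 h (-2.12) no longer passed with the shared spread (limma adjusted p = 0.231). The shared spread includes the Nfkbid libraries numbered 1, whose part in these losses was not tested. The replicate block brought Fth1 in Nfkb1-/- cells at 2 h (-1.58) past the threshold, as it did for Fth1 at 1 h in both knockouts. The wild-type rise of Fth1 at 6 h passed with centring (1.68), with the block (1.27), without Nfkbid replicate 1 (1.33) and without the Nfkbid series (1.38). The Sod2 difference of effects at 6 h (-2.11) passed with the block and with the 2 series alone. The replicate block, fitted once or at each time, changed the calls named here and in the text and no other call of these genes. Counts of genes called lower also moved. In the Nfkb1 series at 2 h there were 17 without and 43 with the block, and in the Nfkbiz series at 6 h 177 with a pseudocount of 0.5, 419 with 0.1 and 104 with 1, and 23 with the shared spread. At 1 h the counts were 27 in each series, ranging over the alternatives from 3 to 65 for Nfkb1 and from 1 to 48 for Nfkbiz. Reads limit neither gene in the chromatin libraries whose depth was recovered. The polyA, TNFa and ERK inhibitor comparisons have 1 library per condition, apart from the J2 double knockout.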

Other observations

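The genes that make superoxide, the substrate of the Sod2 enzyme, included 1 that was lower at times when Fth1 was lower too. Of 8 genes on the list of superoxide and nitric oxide production, 5 were tested in each of the Nfkb1 and Nfkbiz series. Rac2, a GTPase of the phagocyte oxidase, was the 1 gene lower at 1 h and at 2 h in both. Of all genes, 0.597% and 0.376% were lower at these times in the Nfkb1 series and 0.553% and 1.19% in the Nfkbiz series. At 2 h Rac2 was 6.78 and 8.27 RPKM in wild type and 0.666 and 0.847 RPKM in Nfkbiz-/- cells (-2.67 ± 0.28, limma adjusted p = 0.000117). In the Nfkb1 series at 2 h it was 6.09 to 8.70 RPKM in wild type and 0.626 to 1.64 RPKM in the knockout (-2.23 ± 0.37, limma adjusted p = 0.000975). Rac2 is also among the 3 genes most like Fth1, so it is no separate evidence of that pattern.

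Of 14 genes on the list of NF-kB-linked survival genes, 6 were tested in wild type and 5 rose at 0.5 h, when 4.62% of all genes rose, led by Gadd45b (3.45 ± 0.37) and Ier3 (2.53 ± 0.45). Without Nfkbid replicate 1 all 6 of these NF-kB-linked survival genes rose, and the share of all genes in that fit is not given here. Gadd45b was the 1 gene of the list called lower in Nfkb1-/- cells without a replicate block, at 1 h, when 0.597% of all genes were lower (26.9 to 52.7 RPKM in wild type and 3.69 to 9.14 RPKM in the knockout, -2.39 ± 0.43, limma adjusted p = 0.00226). In the Nfkbiz series none of 5 tested was called by limma at 1, 2 or 6 h without a block. With the replicate block 1 was lower at 2 h, and the share of all genes for that fit is not given here.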
